A study of Homo sapiens with 52 samples.

Results

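The genes described here encode the canonical machinery that ends translation and takes the ribosome apart: ABCE1, ETF1, PELO and HBS1L. Each was followed through 1 transcript row of the deposited table, ABCE1 (ENST00000296577.9), ETF1 (ENST00000360541.10), PELO (ENST00000274311.3) and HBS1L (ENST00000367837.9). The rows were picked by identifier and make up 4 of 226882 transcript rows; the rule uses no measured value, but the gene set was proposed with earlier results of these data known. The table holds no gene names, so the pairing of these identifiers with symbols comes from the rule that chose them. The question was whether loss of eIF2D, MCTS1 or DENR raises the mRNA of this machinery, its ribosome footprints or its TCP-seq fragments.

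At a stop codon, eRF1, the product of ETF1, recognises the codon and releases the finished protein. The ATPase ABCE1 then splits the ribosome and leaves a 40S subunit that still holds tRNA and mRNA, and eIF2D or the MCTS1-DENR complex takes part in clearing that 40S subunit. When a ribosome stalls or runs to the end of an mRNA with no stop codon, Pelota (PELO), a relative of eRF1, and its partner GTPase HBS1L enter the empty A site and rescue it, and ABCE1 again does the splitting. These factors work in every cell type, including HEK293T, a transformed human embryonic kidney line.

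All samples were HEK293T cells, and 42 libraries in 20 groups were analysed. RNA-seq (polyadenylated mRNA) and Ribo-seq (fragments protected by ribosomes after cycloheximide and RNase I) had 2 libraries each from wild type (WT), MCTS1 knockout clones MCTS1 KO #1 and MCTS1 KO #2, control siRNA (siControl), and 2 siRNAs against DENR, siDENR #1 and siDENR #2. TCP-seq, which profiles fragments protected by ribosomal complexes, had 4 WT libraries and 2 from each of eIF2D KO #1, eIF2D KO #2, MCTS1 KO #1 and MCTS1 KO #2. 40S Sel-TCP-seq, in which small-subunit complexes are selected through a tag, had 2 libraries each from eIF2D-V5, MCTS1-V5 and DENR-V5. The eIF2D knockout was thus followed in TCP-seq alone, and its TCP-seq values could not be set against mRNA of the same clones. Each KO group is a clone, and the labels say neither how clones were made nor whether replicates were grown separately. A p-value therefore measures only how far the libraries of a group lie apart, which may be technical. 10 further TCP-seq samples, carrying an empty vector or re-expressed eIF2D, were not analysed here.

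Library totals were 76967099 to 301214608 counts in RNA-seq, 16370112 to 193940882 in Ribo-seq, 1609303 to 5053637 in TCP-seq and 356019 to 2582917 in Sel-TCP-seq. Levels are in CPM, which scales the counts of a row to the total of its library and so removes differences in depth. The 4 rows held 116 to 17051 counts in each RNA-seq or Ribo-seq library, but only 13 to 264 in a TCP-seq library and 0 to 98 in a Sel-TCP-seq library. Transcript lengths were not used, so levels of different genes are not compared. The knocked-out or depleted genes, the other genes of the pathway and markers of HEK293T cells could not be looked up, because no list of the genes behind the transcript identifiers was at hand. Rows whose replicate deviations moved with those of a member at r above 0.95 over the 24 RNA-seq and Ribo-seq libraries numbered 7 for ABCE1, 6 for PELO, 4 for HBS1L and 2 for ETF1. Such rows are likely to share reads with it, and none had identical counts. In the RefSeq annotation ABCE1 overlaps ANAPC10, PELO overlaps ITGA1 and PELO-AS1, HBS1L overlaps MIR3662, and ETF1 overlaps no other gene. The use of strand in counting is not stated in the labels, so reads of such neighbours may enter these values.

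The promoters of ABCE1 and HBS1L are shown because these were the members whose mRNA was lower in the MCTS1 KO clones. Each is the 250 bases before the gene's start in RefSeq on GRCh38.p14, 5′ to 3′ on the gene's strand, with matches in capitals; the ABCE1 window is chr4:145098061-145098310 on the plus strand and the HBS1L window chr6:135054823-135055072 on the minus strand.
ABCE1: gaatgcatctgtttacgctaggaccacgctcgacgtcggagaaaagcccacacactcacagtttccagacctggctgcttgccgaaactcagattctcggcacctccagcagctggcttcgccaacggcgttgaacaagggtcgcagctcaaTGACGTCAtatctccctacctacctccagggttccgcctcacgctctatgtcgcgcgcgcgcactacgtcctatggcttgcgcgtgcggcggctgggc
HBS1L: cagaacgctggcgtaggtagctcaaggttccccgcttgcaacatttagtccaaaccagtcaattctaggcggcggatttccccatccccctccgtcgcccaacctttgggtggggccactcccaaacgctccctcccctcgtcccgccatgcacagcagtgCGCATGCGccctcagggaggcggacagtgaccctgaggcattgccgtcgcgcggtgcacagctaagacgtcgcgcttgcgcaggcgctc
6 short motifs were searched on both strands, chosen after the sequences had been seen. The E-box was searched as CACGTG. The cyclic AMP response element was searched as TGACGTCA and the amino acid response element as TGATGCAA. The ETS motif, bound by a large family of transcription factors, was searched as CCGGAAG. The core of the NRF1 motif was searched as CGCATGCG, and the CCAAT box by the letters of its name. No motif overlaps another in the windows shown. The ABCE1 window holds TGACGTCA 98 bases before the start, a motif found in 1.65% of 35116 RefSeq promoter windows of the same length. The HBS1L window holds CGCATGCG 89 bases before the start, found in 1.73% of these windows. ABCE1 and HBS1L thus shared none of the 6 motifs. The PELO window held none of them, and the first of 2 ETF1 windows in the RefSeq table held the ETS motif and the CCAAT box. These matches are descriptions of sequence.

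No member rose in any of the 4 mRNA or footprint comparisons of a loss with its control, and those that changed were lower. A change was called at an adjusted p under 0.05 over all transcripts tested. Below, the order of the 2 libraries of 1 clone or siRNA and their controls only describes values. The share of all transcripts with such an order is not given here, and the order is no call. In RNA-seq of the MCTS1 KO clones 2 of 4 members were lower and 0 higher, where 13.5% of 131951 transcripts tested were lower and 11.4% higher. In RNA-seq after DENR depletion 2 of 4 were lower and 0 higher, beside 12.7% and 10.5% of transcripts. Ribo-seq footprints were lower for 1 of 4 members and higher for 0 in the MCTS1 KO, where 3.43% of transcripts were lower and 2.68% higher. After DENR depletion they were lower for 1 of 4 and higher for 0, beside 6.05% and 4.37% of transcripts. The median log2 change of the 4 members was -0.11 in RNA-seq of the MCTS1 KO, against -0.01 over all transcripts tested. After DENR depletion it was -0.14 in RNA-seq, against -0.01. In Ribo-seq the medians were -0.11 against -0.01 for the MCTS1 KO and -0.11 against -0.02 for DENR. 4 members are too few to set these shares apart from the background.

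**Figure D1:**
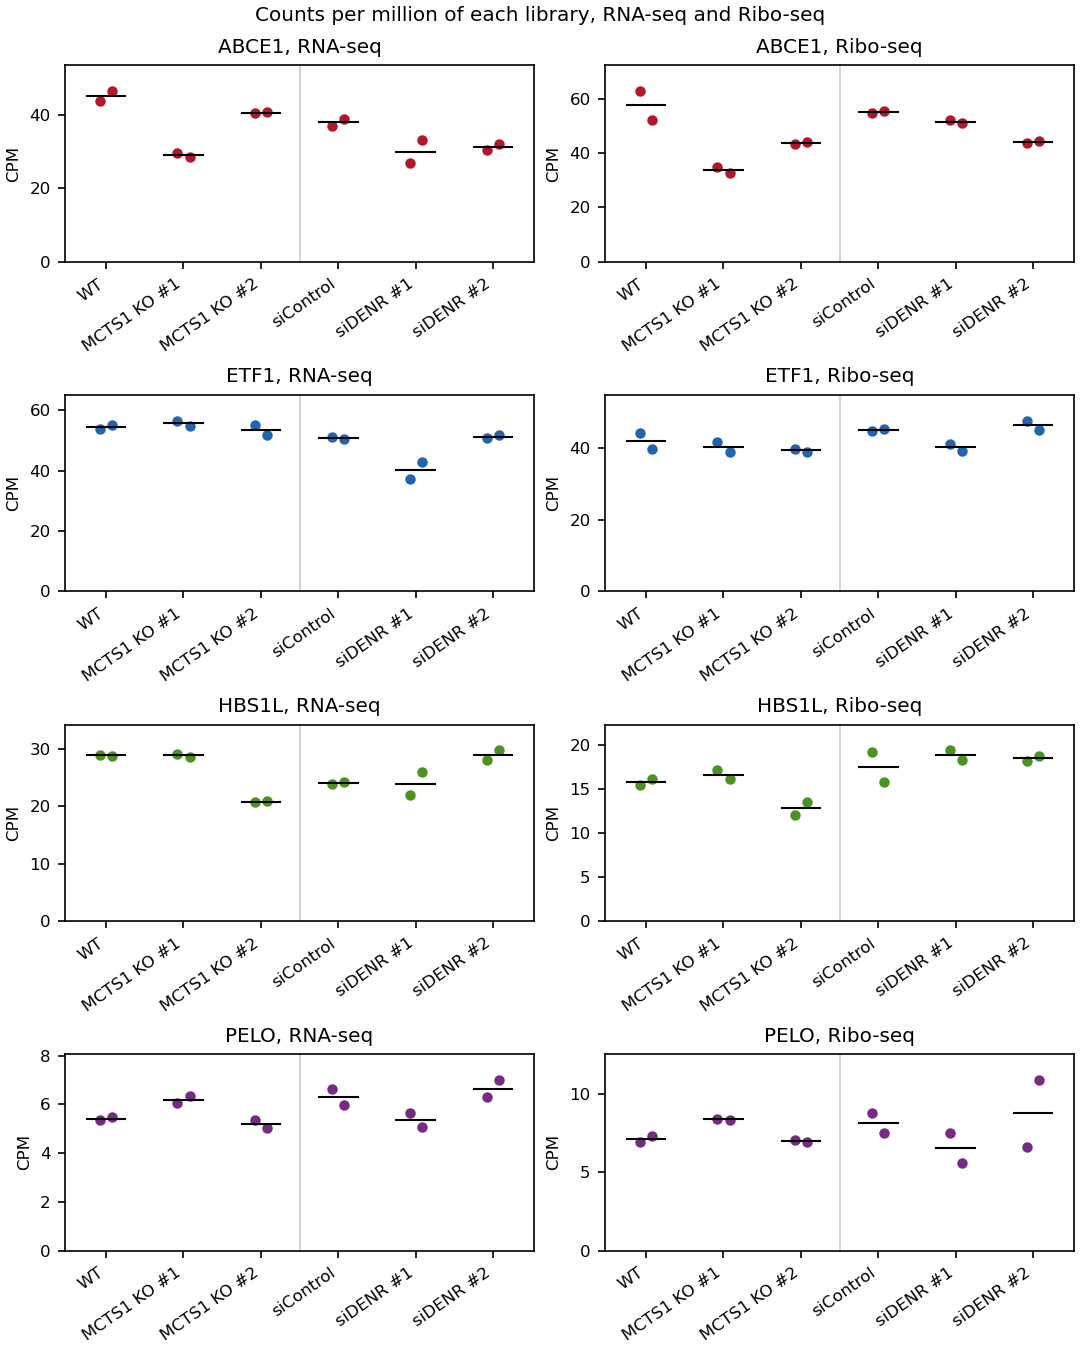
Level of the 4 members in every RNA-seq (left) and Ribo-seq (right) library, in CPM on an axis from 0. Points are libraries, bars the mean of 2, and the grey line parts the MCTS1 KO experiment from the siRNA experiment; all ABCE1 points of MCTS1 KO and siDENR lie below those of their controls in both assays.

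ABCE1, the ribosome-splitting ATPase, was the only member that was lower in all 4 comparisons. Its mRNA was at 43.7 and 46.5 CPM in the WT libraries, 29.5 and 28.4 in MCTS1 KO #1, and 40.5 and 40.6 in MCTS1 KO #2. All 4 KO libraries lay below both WT libraries, which 14.1% of transcripts tested did, and clone #1 lay far lower than clone #2. The mean of both clones gave a log2 change of -0.39 ± 0.04 (SE), or a fold of 0.761 (edgeR's quasi-likelihood test, adjusted p = 2.3e-14). MCTS1 KO #1 alone gave -0.68 ± 0.04 (adjusted p = 9.3e-23, with 21.7% of transcripts lower). MCTS1 KO #2 alone gave -0.11 ± 0.04 (adjusted p = 0.062), and the clones differed by -0.57 (adjusted p = 3.9e-19, where 45.8% of transcripts differed). The call for the mean of both clones thus rests mainly on clone #1.

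ABCE1 footprints followed. Ribo-seq gave 63.0 and 52.4 CPM in WT, 34.8 and 32.6 in MCTS1 KO #1, and 43.3 and 44.2 in MCTS1 KO #2. All 4 KO libraries again lay below WT, as for 10.1% of transcripts, and here the WT libraries differed from each other more than the libraries of a clone did. The log2 change was -0.60 ± 0.08, a fold of 0.662 (adjusted p = 2e-05). Each clone alone was lower, by a log2 change of -0.79 ± 0.09 in #1 (adjusted p = 9.2e-07) and -0.40 ± 0.09 in #2 (adjusted p = 0.01), where 8.71% and 1.83% of transcripts were. The call for #2 was lost without its replicate 1 (adjusted p = 0.21) or replicate 2 (0.19), and its log2 change was -0.26 without WT replicate 1.

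ABCE1 was also lower after DENR depletion. Its mRNA stood at 37.0 and 38.7 CPM with siControl, 26.8 and 33.0 with siDENR #1, and 30.5 and 32.1 with siDENR #2. Every siDENR library lay below every siControl library, as for 13.1% of transcripts. The log2 change was -0.33 ± 0.07, a fold of 0.794 (adjusted p = 8.1e-05), and the siRNAs gave -0.34 and -0.33, each called (adjusted p = 0.00053 and 0.001), where 13.5% and 10.2% of transcripts were lower. The siDENR #1 value was -0.20 without its replicate 1, and the siDENR #2 call was lost without siControl replicate 2 (adjusted p = 0.069). Footprints of ABCE1 were at 54.8 and 55.5 CPM with siControl, 52.2 and 51.1 with siDENR #1, and 43.7 and 44.5 with siDENR #2. No siDENR library reached the siControl level, as for 10.5% of transcripts, although siDENR #1 came near it. The log2 change was -0.23 ± 0.06 (adjusted p = 0.0036), and the call was lost without siControl replicate 2 (adjusted p = 0.079). siDENR #2 alone was lower at -0.34 ± 0.07 (adjusted p = 0.00022, with 5.01% of transcripts lower) and siDENR #1 alone was at -0.12 ± 0.07 (adjusted p = 0.29). The siRNAs differed by 0.22 (adjusted p = 0.025, where 11.1% of transcripts differed).

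The fall of ABCE1 was compared between the experiments in one fit of 12 libraries per assay. In RNA-seq the MCTS1 KO change minus the DENR change was -0.06, with a 95% interval of -0.22 to 0.10. In Ribo-seq it was -0.36 ± 0.10 (adjusted p = 0.015), a larger fall in the MCTS1 KO, where 3.47% of transcripts had a lower and 4.02% a higher difference. That call was lost without WT replicate 1 (-0.22, adjusted p = 0.16), siControl replicate 1 (0.074) or siControl replicate 2 (0.061).

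**Figure D2:**
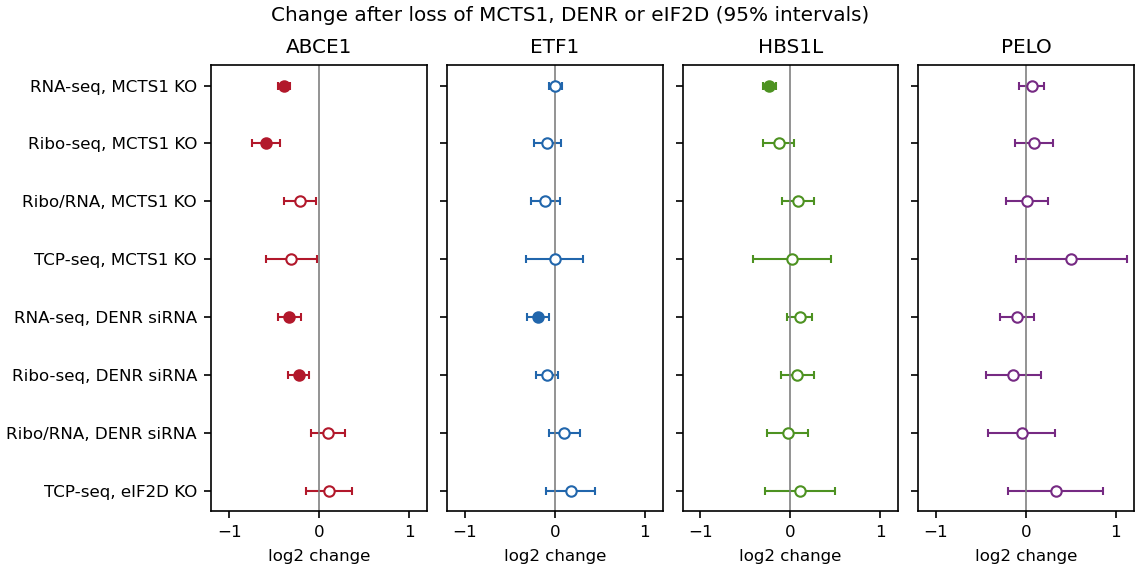
Log2 change of each member (mean of both clones or siRNAs minus control) in each comparison, with 95% intervals; the axis runs over the same range in every panel. Filled points had an adjusted p under 0.05 (edgeR): 4 for ABCE1, 1 for ETF1, 1 for HBS1L and 0 for PELO, and every filled point lies below 0.

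ETF1, which encodes the stop codon reader eRF1, had no called change in the MCTS1 KO. Its mRNA was at 53.9 and 55.0 CPM in WT, 56.6 and 54.9 in MCTS1 KO #1, and 55.3 and 51.7 in MCTS1 KO #2. The groups overlapped, and the 95% interval of the log2 change ran from -0.06 to 0.08. Footprints were at 44.2 and 39.9 CPM in WT, 41.8 and 38.9 in MCTS1 KO #1, and 39.8 and 39.1 in MCTS1 KO #2, with an interval of -0.23 to 0.06. Clone #1 overlapped WT and both libraries of clone #2 lay just below it, where clone #2 alone gave -0.10 ± 0.08 (adjusted p = 0.63).

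After DENR depletion ETF1 mRNA was lower with siDENR #1. The levels were 51.1 and 50.6 CPM with siControl, 37.2 and 42.9 with siDENR #1, and 50.7 and 51.7 with siDENR #2. Only the siDENR #1 libraries were below siControl, and siDENR #2 overlapped it. The mean of both siRNAs gave a log2 change of -0.19 ± 0.06 (adjusted p = 0.015), a call lost without siControl replicate 1 (adjusted p = 0.12), siControl replicate 2 (0.17) or siDENR #2 replicate 1 (0.061). siDENR #1 alone gave -0.34 ± 0.07 (adjusted p = 0.00014), siDENR #2 alone -0.04 ± 0.07 (adjusted p = 0.74), and the siRNAs differed by -0.30 (adjusted p = 0.00083, where 24.9% of transcripts differed). In Ribo-seq ETF1 was at 44.8 and 45.5 CPM with siControl, 41.2 and 39.3 with siDENR #1, and 47.7 and 45.1 with siDENR #2. The order of the groups was that of the mRNA, and the log2 change of -0.08 ± 0.06 for the mean of both did not pass (adjusted p = 0.46). The ETF1 mRNA change in the MCTS1 KO exceeded that after DENR depletion by 0.20 ± 0.07 (adjusted p = 0.034; 10.5% of transcripts had a higher difference), which did not pass with DESeq2 (adjusted p = 0.051) or with library totals as the scaling (0.069), and was lost on leaving out any of 8 of the 12 libraries.

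HBS1L, the GTPase partner of Pelota, was lower in the MCTS1 KO clone in which ABCE1 mRNA was nearer to WT. HBS1L mRNA was at 28.9 and 28.8 CPM in WT, 29.2 and 28.6 in MCTS1 KO #1, and 20.8 and 20.8 in MCTS1 KO #2. MCTS1 KO #1 lay on either side of WT, and both libraries of MCTS1 KO #2 lay below all others. The mean of both clones gave a log2 change of -0.23 ± 0.04, a fold of 0.851 (adjusted p = 1.8e-06). Clone #2 alone gave -0.43 ± 0.05 (adjusted p = 1.3e-11, with 7.51% of transcripts lower), clone #1 alone -0.04 ± 0.04 (adjusted p = 0.54), and the clones differed by 0.40 (adjusted p = 8.9e-12).

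Footprints of HBS1L ran in the same order, at 15.5 and 16.1 CPM in WT, 17.2 and 16.1 in MCTS1 KO #1, and 12.1 and 13.6 in MCTS1 KO #2. Both libraries of clone #2 were again the lowest. For the mean of both clones the log2 change was -0.13 ± 0.08 (adjusted p = 0.41) and for clone #2 alone -0.31 ± 0.10 (adjusted p = 0.093), so neither passed, while the clones differed by 0.37 (adjusted p = 0.0086, where 18.6% of transcripts differed).

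HBS1L had no called change for the mean of both DENR siRNAs. Its mRNA was at 24.0 and 24.3 CPM with siControl, 22.0 and 25.9 with siDENR #1, and 28.2 and 29.8 with siDENR #2. The siDENR #1 libraries lay on either side of siControl and both siDENR #2 libraries lay above it. The log2 change was 0.10 ± 0.07 (adjusted p = 0.29) for the mean of both, and 0.16 without siDENR #1 replicate 1 (adjusted p = 0.021). siDENR #2 alone gave 0.21 ± 0.08 (adjusted p = 0.045, where 9.04% of transcripts were higher), the only rise of a member called with a single clone or siRNA. It did not pass with DESeq2 (adjusted p = 0.086) or without either siControl library (0.29 and 0.17) or either siDENR #2 library (0.14 and 0.32). Footprints were at 19.2 and 15.8 CPM with siControl, 19.4 and 18.4 with siDENR #1, and 18.2 and 18.8 with siDENR #2, and overlapped (interval -0.11 to 0.26). The HBS1L mRNA change in the MCTS1 KO was lower than that after DENR depletion by a log2 difference of -0.33 ± 0.08 (edgeR, adjusted p = 0.0013). Of transcripts, 9.69% had a lower difference. This call held in 17 of 17 alternative fits, none of which left out a whole clone or siRNA.

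PELO, the eRF1-like rescue factor, passed in none of these comparisons. Its mRNA was at 5.35 and 5.48 CPM in WT, 6.05 and 6.33 in MCTS1 KO #1, and 5.37 and 5.01 in MCTS1 KO #2. Clone #1 was above WT and clone #2 overlapped it, and the 95% interval of the log2 change ran from -0.07 to 0.20. Clone #1 alone gave 0.15 ± 0.07 (edgeR, adjusted p = 0.099) and clone #2 alone -0.02 ± 0.08 (adjusted p = 0.92). The clone #1 value had an unadjusted p of 0.048, where 64496 of 131951 transcripts were under 0.05. With siControl PELO mRNA was at 6.61 and 5.99 CPM, with siDENR #1 at 5.67 and 5.07, and with siDENR #2 at 6.29 and 7.01, with an interval of -0.28 to 0.09 for the mean of both. Both siDENR #1 libraries lay below siControl and siDENR #2 overlapped it. siDENR #1 alone gave -0.23 ± 0.11 (adjusted p = 0.12), with an unadjusted p of 0.040, where 47832 of 131311 transcripts were under 0.05.

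PELO footprints were at 6.94 and 7.31 CPM in WT, 8.45 and 8.36 in MCTS1 KO #1, and 7.06 and 6.98 in MCTS1 KO #2. Clone #1 was again the highest, at 0.22 ± 0.11 (adjusted p = 0.19), and the mean of both clones had an interval of -0.12 to 0.30. With siControl they were at 8.81 and 7.51 CPM, with siDENR #1 at 7.51 and 5.63, and with siDENR #2 at 6.64 and 10.9. The siDENR #2 libraries lay on either side of siControl, and the interval was -0.44 to 0.16. For the members with no call in RNA-seq or Ribo-seq, the highest upper end of the intervals for the mean of both was 0.30, for PELO footprints in the MCTS1 KO. Single clones or siRNAs reached higher, as for PELO footprints at 0.45 in MCTS1 KO #1 and 0.40 with siDENR #2.

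**Figure D3:**
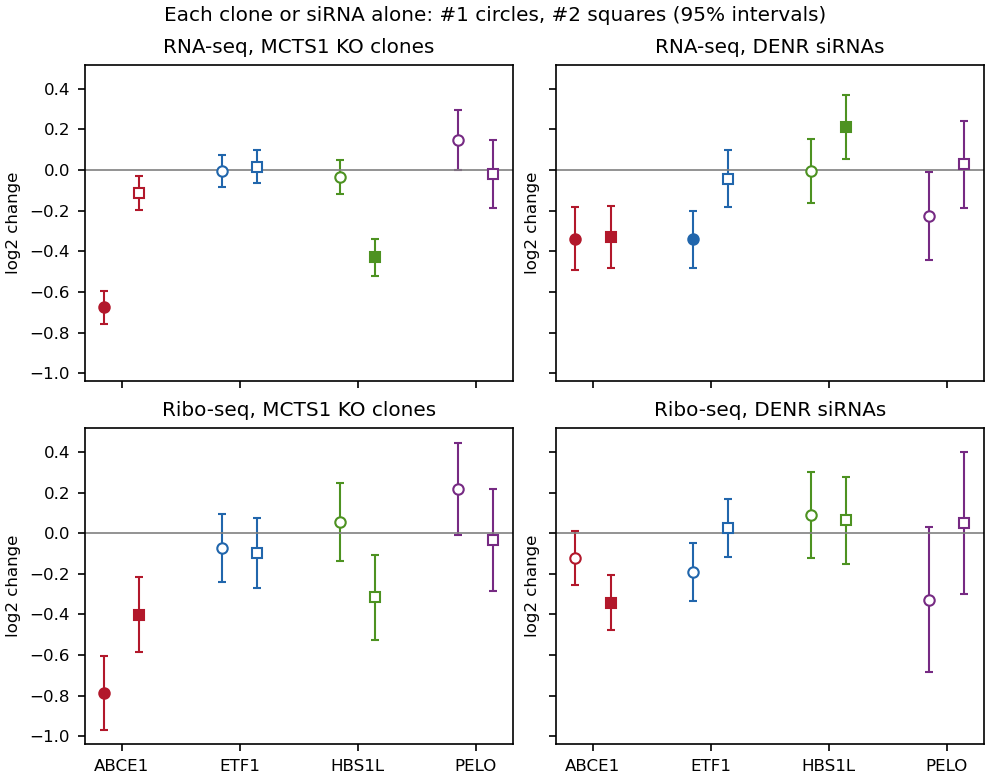
Log2 change of each member for clone or siRNA #1 (circles) and #2 (squares) alone, with 95% intervals; filled symbols had an adjusted p under 0.05 (edgeR). In RNA-seq of the MCTS1 KO, ABCE1 is lower in #1 (-0.68) and HBS1L in #2 (-0.43), and PELO has no filled symbol in any panel.

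Footprints per mRNA, the Ribo-seq to RNA-seq ratio of CPM, set a row against itself, so the length of the whole row cancels. Coding and untranslated parts were not told apart, so the share of a row that is translated may enter the ratio. An order of genes by this ratio is therefore not an order of translation alone. In WT the ratio was 1.28 for ABCE1 and 1.32 for PELO, above the median of 0.792 over 103388 transcripts (percentiles 79.4 and 80.9). It was 0.773 for ETF1 (percentile 48.5) and 0.548 for HBS1L (percentile 29.6). In siControl the ratios were 1.46 for ABCE1, 1.29 for PELO, 0.888 for ETF1 and 0.725 for HBS1L, so that ABCE1 and PELO stood above ETF1 and HBS1L in both control groups, and the pairs of libraries of PELO and ABCE1 overlapped.

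No member had a called change in this ratio, tested as the interaction of group and assay. For the MCTS1 KO 0 of 4 passed, where 0.872% of 108757 transcripts did, and for DENR depletion 0 of 4, where 0.369% of 102515 did. At an unadjusted p under 0.05, 1 member (ABCE1) differed in the MCTS1 KO, where 11477 of 108757 transcripts did. After DENR depletion no member did, where 9622 of 102515 transcripts did. DESeq2 called no member in either. ABCE1 had a log2 change of -0.21 ± 0.09 in the MCTS1 KO, with an interval of -0.39 to -0.04 (edgeR, adjusted p = 0.33). That value depended on the WT Ribo-seq libraries: it was -0.37 (adjusted p = 0.00038) without replicate 2 and -0.06 (adjusted p = 0.81) without replicate 1. After DENR depletion ABCE1 was at 0.10, with an interval of -0.09 to 0.28. For ETF1 the intervals were -0.27 to 0.06 in the MCTS1 KO and -0.07 to 0.28 after DENR depletion. HBS1L had intervals of -0.09 to 0.26 and -0.26 to 0.20, and PELO of -0.22 to 0.24 and -0.42 to 0.33.

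**Figure D4:**
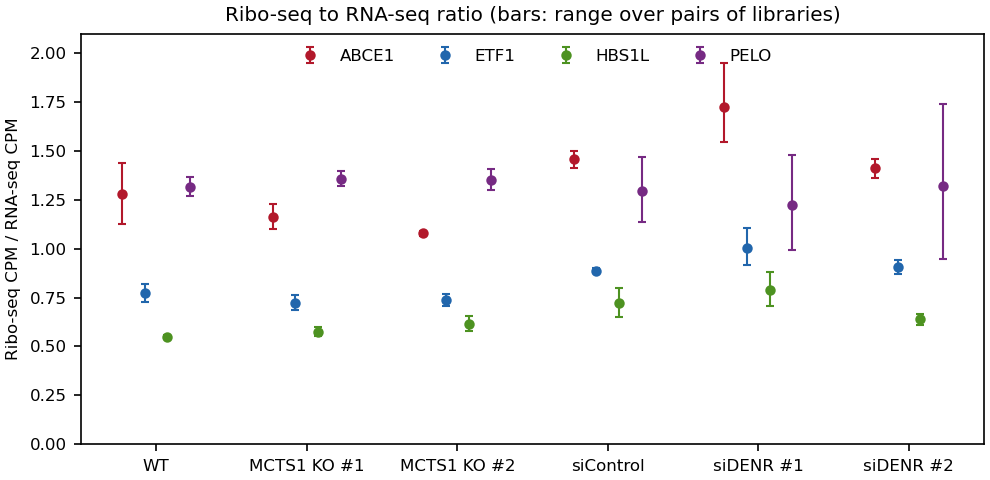
Ratio of Ribo-seq to RNA-seq CPM of each member by group, on an axis from 0. Points are ratios of group means and bars the range over the pairs of libraries; ABCE1 and PELO lie above ETF1 and HBS1L in every group, although the PELO range reaches the ETF1 range with siDENR #1.

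Loss of eIF2D left TCP-seq fragments of the members without a called change: 0 of 4 passed, where 1.63% of 50991 transcripts did. None had an unadjusted p under 0.05, where 6304 of these transcripts did. DESeq2 gave none of the 4 an adjusted p here, so it could not have called any. ABCE1 fragments were at 50.9 and 40.6 CPM in WT libraries 1 and 2, 52.7 and 55.7 in eIF2D KO #1, and 52.2 and 47.4 in eIF2D KO #2. Both libraries of clone #1 lay above WT and clone #2 overlapped it. The log2 change was 0.11 with an interval of -0.15 to 0.37. HBS1L was at 18.5 and 15.1 CPM in WT, 24.3 and 19.9 in eIF2D KO #1, and 17.8 and 15.7 in eIF2D KO #2, and its interval was -0.28 to 0.50. For HBS1L too, clone #1 was above WT and clone #2 overlapped it. The share of transcripts for which 1 clone lies above WT in this way is not given here.

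ETF1 was at 38.6 and 36.9 CPM in WT, 42.1 and 48.1 in eIF2D KO #1, and 44.1 and 43.4 in eIF2D KO #2. All 4 KO libraries lay above both WT libraries, as for 11.2% of transcripts tested, yet the log2 change of 0.18 ± 0.14 did not pass (adjusted p = 0.67). PELO was at 6.16 and 11.4 CPM in WT, 8.51 and 12.3 in eIF2D KO #1, and 10.7 and 11.6 in eIF2D KO #2. The WT libraries lay far apart and overlapped the KO libraries, and its interval of -0.20 to 0.86 covers counts of only 19 to 54.

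In the MCTS1 KO, which was set against WT libraries 3 and 4, TCP-seq gave 0 of 4 members called, where 13.8% of transcripts passed. DESeq2 gave PELO no adjusted p and called none of the other members. ABCE1 was at 55.4 and 41.0 CPM in WT, 31.5 and 40.4 in MCTS1 KO #1, and 51.0 and 42.0 in MCTS1 KO #2. Clone #1 lay below WT and clone #2 within its range. The log2 change was -0.31 ± 0.14, with an interval of -0.59 to -0.03 and an adjusted p of 0.13. For the mean of both clones, ABCE1 was the only member with an unadjusted p under 0.05, as 13987 of 50991 transcripts had. With a library left out its log2 change ran from -0.44 to -0.0865, the latter without WT library 3. PELO was at 5.71 and 7.89 CPM in WT, 9.14 and 8.08 in MCTS1 KO #1, and 10.9 and 11.2 in MCTS1 KO #2. All 4 KO libraries lay above these WT libraries, as for 17.9% of transcripts, but below WT library 2 at 11.4. Its log2 change of 0.50 had an interval of -0.12 to 1.12 and did not pass (adjusted p = 0.29), and it was 0.24 without WT library 3. For PELO, MCTS1 KO #1 alone gave 0.37 ± 0.39 (edgeR, adjusted p = 0.67) and MCTS1 KO #2 alone 0.64 ± 0.32 (adjusted p = 0.15). The MCTS1 KO #2 value had an unadjusted p of 0.049, where 16459 of 50991 transcripts were under 0.05.

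ETF1 fragments were at 30.6 and 35.8 CPM in WT, 40.1 and 30.4 in MCTS1 KO #1, and 32.2 and 32.4 in MCTS1 KO #2, with an interval of -0.32 to 0.31. HBS1L was at 14.7 and 17.9 CPM in WT, 19.3 and 18.6 in MCTS1 KO #1, and 14.6 and 15.1 in MCTS1 KO #2, with an interval of -0.42 to 0.45. The groups overlapped for ETF1. For HBS1L both libraries of clone #1 lay above WT and clone #2 overlapped it, with log2 changes of 0.23 ± 0.26 (adjusted p = 0.70) and -0.20 ± 0.24 (adjusted p = 0.59). The eIF2D KO change minus the MCTS1 KO change passed for 0 of 4 members, where 3.48% of transcripts passed. DESeq2 gave PELO and HBS1L no adjusted p for this difference and called neither ABCE1 nor ETF1. For ABCE1 this difference was 0.42 ± 0.19 (adjusted p = 0.23), and it was 0.19 without WT library 3. Only ABCE1 had an unadjusted p under 0.05 here, as 8825 of 50991 transcripts had.

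**Figure D5:**
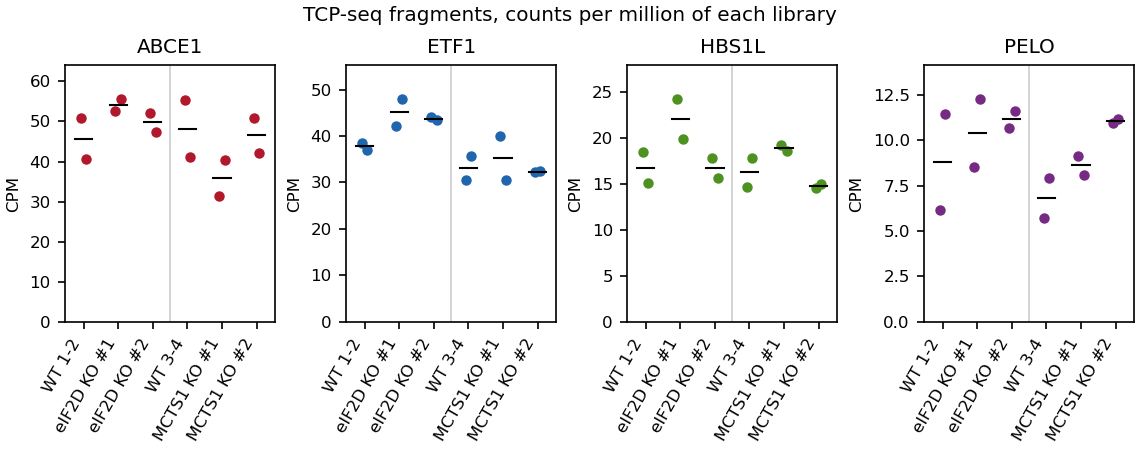
TCP-seq level of each member in every library, in CPM on an axis from 0. Points are libraries and bars the mean of 2. Left of the grey line are WT libraries 1 and 2 with eIF2D KO, right of it WT libraries 3 and 4 with MCTS1 KO. WT libraries were matched to a KO by the run of library names, and the labels do not state this match. ETF1 in eIF2D KO and PELO in MCTS1 KO lie above the WT libraries set against them, and no change passed the test.

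Small-subunit complexes selected through eIF2D-V5, MCTS1-V5 or DENR-V5 held fragments of all 4 members. In the comparison of eIF2D-V5 with the mean of MCTS1-V5 and DENR-V5, 3 members passed the filter on low counts and 0 of 3 were called, where 22.1% of 12135 transcripts were. None had an unadjusted p under 0.05, where 4473 of these transcripts did, and none was called by DESeq2. ABCE1 was at 23.6 and 37.9 CPM with eIF2D-V5, 25.3 and 33.8 with MCTS1-V5, and 31.8 and 18.6 with DENR-V5. All 3 groups overlapped, and the log2 difference was 0.03 with an interval of -0.68 to 0.74. HBS1L was at 10.8 and 16.6 CPM with eIF2D-V5, 11.2 and 14.5 with MCTS1-V5, and 15.9 and 16.6 with DENR-V5, with an interval of -1.01 to 0.66. ETF1 was at 24.6 and 23.6 CPM with eIF2D-V5, 11.2 and 22.5 with MCTS1-V5, and 12.7 and 10.4 with DENR-V5. Both eIF2D-V5 libraries were above the other 4, as for 22.8% of transcripts, and the log2 difference of 0.58 ± 0.37 did not pass (adjusted p = 0.26). These values rest on counts of 4 to 98.

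PELO, left out by the filter, is given here because of its values. It had 8 and 26 counts with eIF2D-V5 (7.87 and 10.1 CPM), 2 and 0 with MCTS1-V5, and 1 and 1 with DENR-V5. The library with a count of 0 had 622051 counts in all, which allows up to 4.82 CPM. Both eIF2D-V5 libraries were above the other 4, and the share of low-count transcripts with this order is not given here. The eIF2D-V5 libraries were also the deepest, at 1017092 and 2582917 counts, where the deepest other library had 629784. The part of depth in this order was not tested. Pooled, 34 of 3600009 counts against 4 of 2090466 gave a ratio of 4.94, with an exact conditional 95% interval of 1.76 to 19.1 that covers counting error only. PELO was picked for these values, so the interval is a description and no test. Fitted without the filter, the log2 difference was 2.20 ± 0.76 and did not pass (edgeR, adjusted p = 0.085). That fit called 3581 transcripts higher with eIF2D-V5 and 558 lower, against 1550 and 1131 with the filter.

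The members did not all share a pattern over the 24 RNA-seq and Ribo-seq libraries. As a description, Pearson's r of log2 CPM after removal of each assay's mean ran from -0.34 (ABCE1 with PELO) to 0.39 (ABCE1 with ETF1); the libraries share scaling and control groups. In deviations from the group means, where only differences between replicates remain, ABCE1 and ETF1 had r = 0.84, and the other pairs ran from -0.21 to 0.40. ABCE1, ETF1 and also HBS1L mRNA were lower in replicate 1 of siDENR #1 than in replicate 2, and PELO mRNA was higher. The rows most like ABCE1 among 28669 of at least 5 CPM were ENST00000504292.1 (r = 0.96) and ENST00000504683.1 (r = 0.95). For ETF1 they reached r = 0.95, for HBS1L 0.96 and for PELO 0.82. Other transcripts of the same gene could not be left out of this search, so these rows may be read in part from the same mRNA.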

How the data were processed

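The 4 assays of HEK293T cells were analysed from whole-number counts per transcript that the authors deposited. The tools STAR, featureCounts, Subread and cutadapt, with the builds hg38 and GRCh38.p13, are named per the submitters' processing notes. Not given in the sources used here are tool versions, the use of strand and the rule for reads on several transcripts. Of the rows, 218062 had a count in some library, in 190420 distinct count profiles, so rows can share reads.

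The members and lists were chosen with earlier results of these data known. The named genes are the 4 members, and the pathway and marker lists could not be used without a table of transcripts and genes. Groups and replicate numbers came from the labels. All transcripts of a comparison were tested with edgeR 4.0.16 in R 4.3.3 (robust quasi-likelihood test, TMM, low counts removed by filterByExpr at 10, p adjusted by Benjamini-Hochberg with a threshold of 0.05). Both clones or siRNAs were averaged and set against control, which leaves the spread between clones out of the p-value. A standard error was the absolute log2 change divided by the root of F. The 12 TCP-seq libraries shared one fit, with WT libraries matched to a KO by the run of library names. CPM were scaled by library totals, whereas tests used TMM. The tests were tried on simulated data. Alternatives were DESeq2 1.42.0, other scaling, filters and WT libraries, 1 row per distinct profile, a replicate block, 1 fit per assay, and each library left out. No replicate pair was identical, and all differed by at least 1.10 times counting noise.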

Additional observations from a re-analysis of the deposited data

Results flagged for a closer look

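The clones or siRNAs, or the experiments, differed for 11 results by a test of the difference itself (edgeR, adjusted p under 0.05). Each value is a log2 difference. Such differences were also tested in footprints per mRNA and TCP-seq, where no member passed. Of all transcripts, 45.8% in RNA-seq and 18.6% in Ribo-seq differed between the MCTS1 KO clones. Between the DENR siRNAs 24.9% and 11.1% differed. In RNA-seq, MCTS1 KO #1 minus #2 was -0.57 for ABCE1 and 0.40 for HBS1L. In Ribo-seq the same difference was -0.39 for ABCE1 and 0.37 for HBS1L. Clone #1 thus had the lower ABCE1 and clone #2 the lower HBS1L in both assays. The RNA-seq calls held in 11 of 11 alternatives for each gene. In Ribo-seq ABCE1 lost the call without MCTS1 KO #1 replicate 2 (adjusted p = 0.053), #2 replicate 1 (0.066) or #2 replicate 2 (0.091), and HBS1L without #1 replicate 1 (0.11) or #2 replicate 1 (0.19). The libraries of clone #1 were the deepest of both assays, and the part of depth in these differences was not tested.

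In RNA-seq, siDENR #1 minus #2 was -0.22 for HBS1L and -0.30 for ETF1. The HBS1L difference was -0.11 (adjusted p = 0.30) without siDENR #1 replicate 1 and was called in 5 of 11 alternatives, and the ETF1 difference in 11 of 11. In Ribo-seq the same difference was 0.22 for ABCE1, called in 5 of 11 alternatives, and -0.22 for ETF1, called in 2 of 11.

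The MCTS1 KO change minus the DENR siRNA change was -0.33 for HBS1L and 0.20 for ETF1 in RNA-seq. There 9.69% of transcripts had a lower and 10.5% a higher difference. In Ribo-seq the same difference was -0.36 for ABCE1, where 3.47% of transcripts had a lower and 4.02% a higher difference. The ABCE1 value was -0.22 without WT replicate 1.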

How the results depend on the processing

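Of 893 values of single members under the alternatives, 794 kept direction and call, 50 lost a call, 2 gained one and 47 changed sign, none of them a called value in either fit. The falls of ABCE1 and HBS1L mRNA in the MCTS1 KO, of ABCE1 mRNA after DENR depletion and of ABCE1 footprints in the MCTS1 KO kept their calls in 12 of 12 alternatives. None of these left out a whole clone or siRNA, so they cannot show dependence on 1 of them. Tested alone, ABCE1 mRNA was called lower only in MCTS1 KO #1 and HBS1L mRNA only in MCTS1 KO #2. ABCE1 mRNA was called with each DENR siRNA, and ABCE1 footprints in each MCTS1 KO clone. The members had at most 264 counts in a TCP-seq library and 98 in a Sel-TCP-seq library, which limits what these assays can show.

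Transcripts called moved from 32828 to 19290 with DESeq2 in RNA-seq of the MCTS1 KO, from 7050 to 4229 in its Ribo-seq and from 11348 to 6342 in Ribo-seq after DENR depletion. For footprints per mRNA in the MCTS1 KO, 948 became 1679 without the filter. The 831 of TCP-seq in the eIF2D KO became 35 with DESeq2, 550 without the filter, 2234 with all 4 WT libraries and 5414 with WT of the other run. The 7017 of the MCTS1 KO became 2225 with DESeq2 and 3432 with WT of the other run, and the 1776 of the difference between them became 247 with DESeq2, 868 without the filter and 4559 with all 4 WT libraries. The 2681 of Sel-TCP-seq became 1017 with DESeq2 and 4139 without the filter. For the difference between the MCTS1 and DENR effects in RNA-seq, members called fell from 2 to 1 with DESeq2 and with library totals. The cause of these moves was not tested.

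Signs changed in TCP-seq of the MCTS1 KO for ETF1 (0.032 with library totals, 0.043 without the filter) and HBS1L (-0.027 with all 4 WT libraries, -0.063 with WT of the other run). They also changed for PELO in the TCP-seq difference (0.12 with all 4 WT libraries), for HBS1L in Sel-TCP-seq (0.18 with library totals) and for ETF1 in the Ribo-seq difference (-0.0028 with DESeq2, -0.010 with library totals).

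With a library left out, the counts ran from 19374 (without WT replicate 2) to 32398 in RNA-seq of the MCTS1 KO, and from 14751 (without siControl replicate 1) to 40741 after DENR depletion, where members called ran from 1 to 3. In Ribo-seq they ran from 2533 (without MCTS1 KO #2 replicate 2) to 15401 (without WT replicate 2) and from 5721 (without siControl replicate 2) to 11593, where members called ran from 0 to 1. For footprints per mRNA they ran from 413 (without RNA-seq WT replicate 2) to 4848 (without Ribo-seq WT replicate 2), with 0 to 1 members called, and from 158 to 765. TCP-seq ran from 182 (without WT replicate 2) to 1058 in the eIF2D KO, from 2541 (without WT replicate 3) to 7676 in the MCTS1 KO and from 410 to 2357 for their difference. Sel-TCP-seq ran from 807 (without eIF2D-V5 replicate 2) to 4611. The difference between MCTS1 and DENR effects ran from 18461 to 33995 in RNA-seq, with 1 to 2 members, and from 5544 to 9312 in Ribo-seq, with 0 to 1. Where a group was left with 1 library, that library was assumed to vary like the others.

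In TCP-seq ABCE1 ran from -0.44 to -0.0865 in the MCTS1 KO and from 0.19 to 0.55 for the difference between the KO effects, the smaller size of each being without WT replicate 3. Members whose sign changed with a library left out are given by their log2 range. In RNA-seq of the MCTS1 KO ETF1 ran from -0.018 to 0.0303. In Ribo-seq after DENR depletion HBS1L ran from -0.0624 to 0.22, and PELO ran from -0.31 to 0.0333. For footprints per mRNA PELO in the MCTS1 KO ran from -0.016 to 0.0339, and, after DENR depletion, PELO ran from -0.22 to 0.13, and HBS1L ran from -0.16 to 0.11. In TCP-seq PELO in the eIF2D KO ran from -0.20 to 0.78, and, in the MCTS1 KO, ETF1 ran from -0.15 to 0.16, and HBS1L ran from -0.16 to 0.20. In the TCP-seq difference HBS1L ran from -0.0955 to 0.27, and PELO ran from -0.71 to 0.25. In Sel-TCP-seq ABCE1 ran from -0.31 to 0.28, and HBS1L ran from -0.50 to 0.0025. In the difference between MCTS1 and DENR effects ABCE1 in RNA-seq ran from -0.13 to 0.0242, and ETF1 in Ribo-seq ran from -0.0858 to 0.0831.

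Replicate numbers did not pair the samples throughout. In the siRNA RNA-seq, the differences between replicates 1 and 2 went together in siDENR #1 and siDENR #2 (r = 0.42). With those of siControl they had r = -0.20 and -0.24. Elsewhere these correlations lay between -0.12 and 0.23, and the main fits used no pairing. With the replicate block, Sel-TCP-seq calls became 4498 and members called stayed at 2 in both RNA-seq comparisons, and 1 in both Ribo-seq comparisons. The block ended 1 call, the difference between the DENR siRNAs for ETF1 footprints (adjusted p = 0.054). The TCP-seq MCTS1 KO and its WT libraries share no replicate number, so no block could be used there.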
